A study of Mus musculus with 12 samples.

Results

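Glycolysis turns glucose into pyruvate and lactate, and many of its genes respond to oxygen. When oxygen is low, prolyl hydroxylases no longer mark the transcription factor HIF-1α for degradation, and HIF-1α raises mRNAs for glucose uptake, glycolytic enzymes, lactate export and collagen hydroxylation. Proliferating myoblasts rely on glycolysis, and the muscle isozymes of several enzymes become prominent as they differentiate. Here 33 genes of this kind were followed in C2C12 cells, a mouse myoblast line, by the symbols of a fixed list: 15 glycolytic enzymes and 18 others, which are transporters and regulators of flux, oxygen sensors and further HIF targets. The 33 symbols were found in 34 of the 54532 gene rows, because Aldoa names 2 rows, and the 34 rows were all among the 15122 that passed the filter on low counts.

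The question of the study was how KEAP1 and CCNF shape oxidative stress signaling in myoblasts. KEAP1 is the substrate adaptor through which the antioxidant transcription factor NRF2 is degraded, and CCNF (cyclin F) is the adaptor of another ubiquitin ligase, known for cell-cycle substrates such as E2F factors. The siRNAs were given at 30 nM for 48 h and were non-targeting in siCONTROL, directed at Keap1 in siKEAP1, at Ccnf in siCCNF and at both mRNAs in siKEAP1/siCCNF cells, and each of the 4 groups had 3 biological replicates with poly(A)-selected RNA. All groups were the same cell line, for which the labels name growth medium and neither induced differentiation nor altered oxygen. The labelled serum level was the same in every library. It lies below that of the growth medium in the paper's methods and above that of the differentiation medium there. The labels do not say which siRNA sequence was used, and the depletions were partial.

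Total counts ran from 18464209 to 37743198 per library. Keap1 stood at 87.8 ± 3.05 CPM (counts scaled to library size, mean ± SD, n = 3) in siCONTROL, 12.6 ± 0.279 in siKEAP1, 85.2 ± 4.35 in siCCNF and 24.1 ± 2.56 in siKEAP1/siCCNF cells, so less of it remained with siKEAP1 alone than with both siRNAs. Ccnf stood at 81.1 ± 3.99, 59.4 ± 4.83, 20.5 ± 0.778 and 24.5 ± 1.01 CPM in the same order. The cells carried myoblast markers in every library, with a summed level of 6 markers of 1509 to 1743 CPM in siCONTROL, 1003 to 1021 in siKEAP1, 734 to 771 in siCCNF and 725 to 812 in siKEAP1/siCCNF cells. The summed level of muscle differentiation markers, of which 8 of 10 passed the filter, was 77.9 to 178 CPM in siCONTROL but 5.88 to 6.32, 27.3 to 40.5 and 14.9 to 17.4 in the depleted groups. Both marker lists thus moved with the groups compared below, and their part in the differences of the 33 genes was not tested. Of other cell types, the macrophage, endothelial and adipocyte lists each summed to at most 10.7 CPM. The epithelial list summed to 10.5 to 16.9, 41.3 to 46.5, 13.7 to 21.1 and 21.2 to 24.8 CPM in the 4 groups, nearly all of it Krt14, and Ptprc, Adgre1, Kdr, Adipoq and Plin1 had 0 to 3 counts per library. The libraries siCONTROL replicate 1 and siKEAP1/siCCNF replicate 3 stood apart from their groups, in that their deviations followed gene length (r = -0.44 and r = -0.45 across 12756 genes). Without these 2 libraries, 24 results of the 33 genes crossed the threshold, 20 of them passing it and 4 losing their call, and their values are given beside the results below.

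Depletion of CCNF lowered most glycolytic enzymes, whereas depletion of KEAP1 moved members in both directions. After siCCNF, 21 of the 34 rows (61.8%) were lower and 5 (14.7%) higher than in siCONTROL at an adjusted p below 0.05, beside 25.5% lower and 22.5% higher among all genes tested. In siKEAP1/siCCNF cells 25 rows (73.5%) were lower and 4 (11.8%) higher, beside 23.6% and 20.6% of all genes. After siKEAP1, 14 rows (41.2%) were lower and 7 (20.6%) higher, beside 20.2% and 20.4%, so the higher share was near that of all genes. The p-values come from quasi-likelihood F-tests in edgeR and were adjusted by Benjamini-Hochberg over all genes tested, and these 3 comparisons share the siCONTROL libraries. Few of the changes exceeded 2-fold: 3 rows were lower after siKEAP1 (beside 3.88% of all genes tested), 3 lower and 1 higher after siCCNF (beside 6.76% and 4.61%), and 9 lower and 1 higher in siKEAP1/siCCNF cells (beside 5.54% and 4.73%). As shares of the 34 rows, the lower ones were 8.82%, 8.82% and 26.5%, so that after siCCNF was near the share of all genes.

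The glycolytic enzymes fell mainly with siCCNF, and the other members were lower more often than all genes tested in each depleted group. Of 16 enzyme rows, 13 were lower and 1 higher after siCCNF, with a median log2 fold change of -0.60. In siKEAP1/siCCNF cells the counts were again 13 and 1, and the median was -0.72. After siKEAP1, 5 enzyme rows were lower and 4 higher, with a median of -0.10. The 18 other members had 9 lower and 3 higher rows after siKEAP1, with a median of -0.40, and 8 lower and 4 higher after siCCNF, with a median of -0.11. In siKEAP1/siCCNF cells 12 of them were lower and 3 higher, with a median of -0.30. Over all genes tested the median stayed between -0.01 and 0.01 in these comparisons. Of all genes tested, 20.2% were lower and 20.4% higher after siKEAP1, 25.5% and 22.5% after siCCNF, and 23.6% and 20.6% with both siRNAs. The enzyme rows had 31.25% and 25%, 81.25% and 6.25%, and 81.25% and 6.25% in the same order. For the other members these shares were 50% and 16.7%, 44.4% and 22.2%, and 66.7% and 16.7%. Calls in the higher direction among the other members were thus near or below the shares of all genes.

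**Figure D1:**
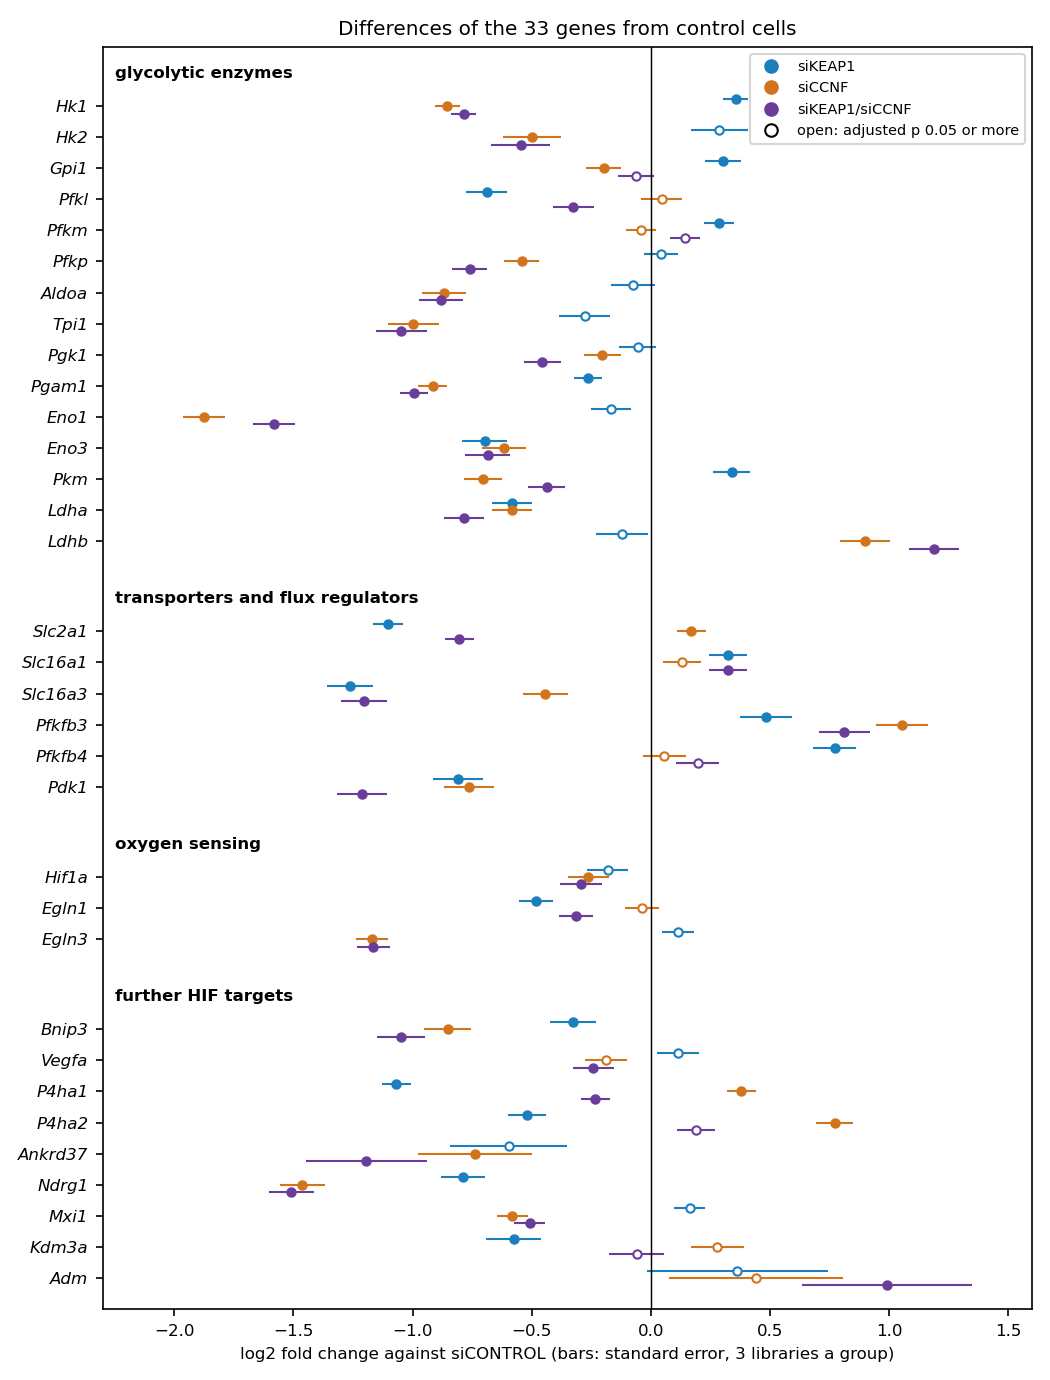
Log2 fold change against siCONTROL (x axis, bars are the standard error, 3 libraries a group) of the 33 genes (y axis, by role), with filled points for an adjusted p below 0.05 and 1 colour for each siRNA group. Orange and purple points (siCCNF and siKEAP1/siCCNF) lie left of 0 for most enzymes, down to -1.88 for Eno1, whereas blue points (siKEAP1) lie on both sides. The shorter Aldoa row is not drawn.

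The summed level of the 15 enzymes shows the size of this loss. It was 10836, 9439 and 9367 CPM in the siCONTROL libraries and 9979, 9536 and 9730 CPM in the siKEAP1 libraries, which overlapped. It was 5697, 6060 and 5977 CPM after siCCNF and 5677, 5947 and 6678 CPM in siKEAP1/siCCNF cells, all below every siCONTROL and siKEAP1 library. As a share of all counts the enzymes took 0.990% ± 0.084 in siCONTROL, 0.986% ± 0.026 in siKEAP1, 0.580% ± 0.024 in siCCNF and 0.611% ± 0.050 in siKEAP1/siCCNF cells (SD, n = 3). Bulk RNA cannot tell fewer cells of a kind from less RNA per cell. Pseudogene rows of Tpi1, Pgk1, Pgam1 and Ldha held at most 131, 144, 103 and 61 counts in any library. How reads that fit several copies were counted is not given, so the part of such reads in the enzyme levels is unknown.

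Eno1 (ENSMUSG00000063524, GRCm38 chromosome 4 from 150236721 to 150248879), the ubiquitous enolase that forms phosphoenolpyruvate, fell furthest. Its level was 1383, 1351 and 1331 CPM in siCONTROL, 1238, 1183 and 1202 CPM in siKEAP1, 338, 382 and 388 CPM in siCCNF and 401, 441 and 516 CPM in siKEAP1/siCCNF libraries. The siCCNF and siKEAP1/siCCNF libraries lay far below all others. The log2 fold change after siCCNF was -1.88 ± 0.09 (SE) with an edgeR adjusted p of 7.28e-09, and in siKEAP1/siCCNF cells it was -1.58 ± 0.09 (adjusted p = 3.13e-08). After siKEAP1 it was -0.17 ± 0.08 and missed the threshold (adjusted p = 0.14), which it passed without siKEAP1/siCCNF replicate 3 (adjusted p = 0.0374) and without both libraries that stand apart (-0.16, adjusted p = 0.0246). A second row, Eno1b, is a near-identical copy that can share reads with Eno1, and it was added after its values were seen. Its level was 473 ± 32.3, 413 ± 10.8, 126 ± 6.32 and 155 ± 25.4 CPM in siCONTROL, siKEAP1, siCCNF and siKEAP1/siCCNF cells, so the division of reads between the rows is uncertain, but both were lower where Ccnf was depleted.

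Eno3, the muscle enolase, was 542, 446 and 438 CPM in siCONTROL libraries and 271 to 337 CPM across the 9 depleted libraries, which did not overlap with control. Its log2 fold changes were -0.70 ± 0.09 after siKEAP1, -0.62 ± 0.09 after siCCNF and -0.68 ± 0.09 with both siRNAs (edgeR adjusted p = 6.09e-05, 0.000135 and 6.52e-05). Measured per length in FPKM (counts scaled to gene length and library total), Eno3 made up 51.9% ± 2.47 of the Eno1 and Eno3 sum in siCONTROL, 42.9% ± 0.406 in siKEAP1, 72.2% ± 2.22 in siCCNF and 66.9% ± 1.38 in siKEAP1/siCCNF cells. This sum leaves out Eno1b, which can share reads with Eno1 and was also lower where Ccnf was depleted. The shares also rest on the deposited gene lengths, 5379 bases for Eno1 and 1739 for Eno3. Without length scaling, Eno1 had 30858, 24895 and 27628 counts in the siCONTROL libraries and Eno3 12085, 8226 and 9103. The size of these shares is therefore uncertain. The groups of 3 libraries did not overlap with siCONTROL, and the exact 2-sided permutation test gave p = 0.1, the smallest that 3 against 3 allows.

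Aldoa, Tpi1 and Pgam1, which act between fructose bisphosphate and phosphoenolpyruvate, fell after siCCNF. Aldoa (ENSMUSG00000030695, chromosome 7 from 126795234 to 126800751), the main aldolase, was 1109, 942 and 897 CPM in siCONTROL, 966, 904 and 930 in siKEAP1, 500, 566 and 550 in siCCNF and 490, 517 and 594 in siKEAP1/siCCNF libraries. The siKEAP1 libraries fell within the control range and the others did not. Tpi1, triose phosphate isomerase, showed the same order, with 829, 630 and 613 CPM in siCONTROL, 594, 548 and 568 in siKEAP1, 332, 360 and 346 in siCCNF and 303, 328 and 371 in siKEAP1/siCCNF libraries. Pgam1, phosphoglycerate mutase, went from 554, 533 and 512 CPM in siCONTROL to 446, 438 and 446 in siKEAP1, 265, 298 and 285 in siCCNF and 260, 272 and 271 in siKEAP1/siCCNF libraries, and no depleted library overlapped with control. The log2 fold changes after siCCNF were -0.87 ± 0.09 for Aldoa, -0.997 ± 0.11 for Tpi1 and -0.92 ± 0.06 for Pgam1 (edgeR adjusted p = 5.67e-06, 6.9e-06 and 9.04e-08). Of these 3 genes Pgam1 alone passed the test after siKEAP1, with -0.26 ± 0.06 (adjusted p = 0.00302). Tpi1 was at -0.28 ± 0.11 there (adjusted p = 0.0547), and passed without siCONTROL replicate 2, siCONTROL replicate 3 or siKEAP1/siCCNF replicate 3 (adjusted p = 0.0338, 0.0204 and 0.0317). With each library left out it ran from -0.36 to -0.14, with adjusted p-values up to 0.174, and without both libraries that stand apart it was -0.14 with an adjusted p of 0.0309. Pgk1, phosphoglycerate kinase, changed less: 801 ± 81.6 CPM in siCONTROL, 771 ± 15.7 in siKEAP1, 696 ± 36.3 in siCCNF and 584 ± 36.9 with both siRNAs. Its loss in siKEAP1/siCCNF cells passed the test (-0.46 ± 0.08, adjusted p = 0.000361). After siCCNF it was -0.20 ± 0.08 with an edgeR adjusted p of 0.0458, and leaving out any 1 of 7 libraries gave -0.21 to -0.12 with adjusted p-values of 0.0575 to 0.153, the smallest difference without siCONTROL replicate 1. Without both libraries that stand apart it was -0.12 (adjusted p = 0.0563), and with the replicate number as a block in these 2 groups -0.20 (adjusted p = 0.103). The shorter Aldoa row (ENSMUSG00000114515), just upstream of the main one, had 3.07 ± 0.29 CPM in siCONTROL and was lower in the 3 depleted groups, at 1.72 ± 0.275, 1.6 ± 0.319 and 1.26 ± 0.0877 CPM.

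Pkm, the pyruvate kinase that makes ATP and pyruvate, was the most abundant enzyme per length (598 ± 52.9 FPKM in siCONTROL) and moved in opposite directions. It was 3321, 2845 and 2880 CPM in siCONTROL, 3890, 3765 and 3791 in siKEAP1, 1786, 1879 and 1887 in siCCNF and 2078, 2144 and 2458 in siKEAP1/siCCNF libraries. Every siKEAP1 library lay above control and every library with siCCNF below it. The log2 fold changes were 0.34 ± 0.08, -0.70 ± 0.08 and -0.44 ± 0.08 (edgeR adjusted p = 0.0034, 8.61e-06 and 0.000502). Hk1, the hexokinase that traps glucose in most cells, went the same way. It was 199, 214 and 213 CPM in siCONTROL, 263, 268 and 269 in siKEAP1, 114, 116 and 116 in siCCNF and 120, 123 and 120 in siKEAP1/siCCNF libraries, with no overlap with control. Its log2 fold changes were 0.36 ± 0.05, -0.85 ± 0.05 and -0.78 ± 0.05 (edgeR adjusted p = 0.000118, 5.58e-08 and 1.36e-07). Gpi1, glucose phosphate isomerase, rose after siKEAP1 from 257 ± 21.5 to 318 ± 8.24 CPM (0.30 ± 0.08, edgeR adjusted p = 0.00549). After siCCNF its log2 fold change was -0.20 ± 0.08 (adjusted p = 0.0441), and leaving out any 1 of 9 of the 12 libraries gave -0.22 to -0.13 with adjusted p-values of 0.0554 to 0.132. Without both libraries that stand apart it was -0.13 (adjusted p = 0.0228), and with the replicate number as a block in these 2 groups -0.19 (adjusted p = 0.0902). Hk2, the inducible hexokinase, was 32.2 ± 4.92 CPM in siCONTROL and fell to 22.8 ± 2.06 after siCCNF and 22.0 ± 3.23 with both (adjusted p = 0.00453 and 0.00278). After siKEAP1 it was 39.3 ± 0.98 CPM, with an adjusted p of 0.0763 that became 0.018 without siCONTROL replicate 3.

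The phosphofructokinases, which commit sugar to glycolysis, changed one by one. Pfkl, the liver-type subunit, was 259, 235 and 223 CPM in siCONTROL, 160, 138 and 146 in siKEAP1, 228, 259 and 252 in siCCNF and 173, 192 and 207 in siKEAP1/siCCNF libraries. It was lower in every library with siKEAP1, whereas the siCCNF libraries overlapped with control. Its log2 fold changes were -0.69 ± 0.09 after siKEAP1, 0.04 ± 0.09 after siCCNF and -0.33 ± 0.09 with both (edgeR adjusted p = 3.31e-05, 0.692 and 0.00777). Pfkm, the muscle subunit, rose after siKEAP1 from 95.2 ± 1.87 to 116 ± 7.02 CPM (0.29 ± 0.06, edgeR adjusted p = 0.00247), and was 92.5 ± 3.33 and 105 ± 4.50 CPM in siCCNF and siKEAP1/siCCNF cells, which missed the threshold. Pfkp, the platelet-type subunit, was 66.4 ± 5.83 CPM in siCONTROL and 68.4 ± 0.913 in siKEAP1, but fell to 45.6 ± 0.291 and 39.2 ± 2.41 in siCCNF and siKEAP1/siCCNF cells (adjusted p = 4.62e-05 and 3.08e-06). By FPKM, Pfkl made up 51.6% ± 1.84 of the 3 subunits in siCONTROL and 35.8% ± 0.565 in siKEAP1 cells, while Pfkm went from 41.2% ± 1.13 to 56.0% ± 0.226. Neither share overlapped between these groups, and the exact permutation p was 0.1, the smallest possible.

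**Figure D2:**
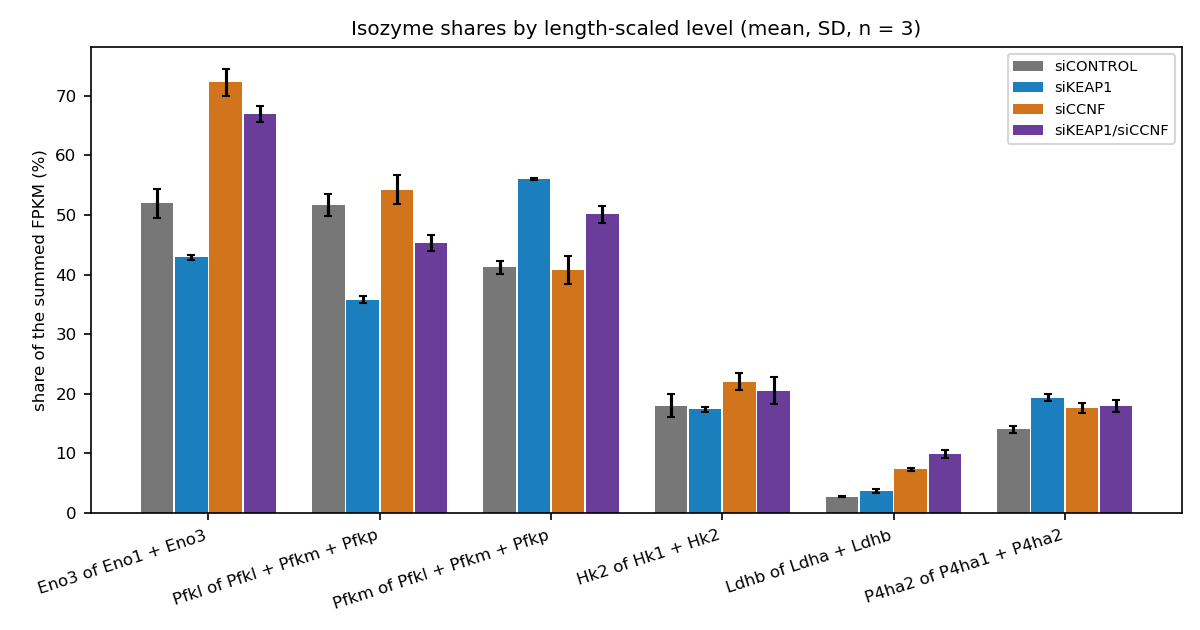
Share of each isozyme in the summed FPKM of its family (y axis, percent, bars are the mean and lines the SD of 3 libraries) in the 4 groups. The Eno3 bars rise to 72.2% after siCCNF, the Pfkl bar falls to 35.8% after siKEAP1 and the Ldhb bars climb from 2.76% to 9.97%. The enolase sum leaves out Eno1b, which can share reads with Eno1. Its shares rest on the deposited gene lengths, 5379 bases for Eno1 and 1739 for Eno3.

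The lactate dehydrogenase isozymes moved in opposite directions after siCCNF. Ldha, the form that favours lactate production, was 1261, 1042 and 1032 CPM in siCONTROL, 779, 701 and 749 in siKEAP1, 738, 745 and 742 in siCCNF and 607, 625 and 705 in siKEAP1/siCCNF libraries. All 9 depleted libraries lay below control, with log2 fold changes of -0.58 ± 0.08, -0.58 ± 0.08 and -0.78 ± 0.08 (edgeR adjusted p = 0.000109, 8.77e-05 and 8.15e-06). Ldhb, which favours the reverse reaction, was the single enzyme higher after siCCNF, and its siKEAP1 libraries overlapped with control. It was 16.0, 14.2 and 14.5 CPM in siCONTROL, 13.8, 14.3 and 13.1 in siKEAP1, 28.4, 26.7 and 28.3 in siCCNF and 30.0, 32.1 and 40.1 in siKEAP1/siCCNF libraries. The log2 fold changes with siCCNF were 0.90 ± 0.10 and, with both siRNAs, 1.19 ± 0.11 (edgeR adjusted p = 1.34e-05 and 1.46e-06). Ldhb stayed the minor form: by FPKM it made up 2.76% ± 0.142 of the pair in siCONTROL, 3.76% ± 0.309 in siKEAP1, 7.33% ± 0.253 in siCCNF and 9.97% ± 0.662 in siKEAP1/siCCNF cells.

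Among transporter mRNAs, Slc2a1 and Slc16a3 fell with siKEAP1 and Slc16a1 rose. Slc2a1 (ENSMUSG00000028645, chromosome 4 from 119108711 to 119137983), which encodes the glucose transporter GLUT1, was 132, 119 and 129 CPM in siCONTROL, 61.9, 57.5 and 57.8 in siKEAP1, 144, 142 and 143 in siCCNF and 69.7, 71.9 and 76.7 in siKEAP1/siCCNF libraries. The 6 libraries with siKEAP1 lay well below the 6 without it. The log2 fold changes were -1.10 ± 0.06 after siKEAP1 and -0.80 ± 0.06 with both (edgeR adjusted p = 2.87e-08 and 4.77e-07). After siCCNF it was 0.17 ± 0.06 (adjusted p = 0.0364), and leaving out any 1 of 6 libraries gave 0.13 to 0.18 with adjusted p-values of 0.0542 to 0.137. With the replicate number as a block in these 2 groups the adjusted p was 0.0696. Slc16a3, which encodes the lactate exporter MCT4, was 99.3, 87.5 and 85.8 CPM in siCONTROL, 38.2, 36.4 and 39.0 in siKEAP1, 58.7, 69.4 and 72.5 in siCCNF and 36.2, 38.5 and 43.9 in siKEAP1/siCCNF libraries. It was lower in every depleted library, by log2 fold changes of -1.26 ± 0.10, -0.44 ± 0.09 and -1.20 ± 0.10 (edgeR adjusted p = 3.84e-07, 0.00177 and 6.37e-07). Slc16a1, the monocarboxylate transporter MCT1, rose from 129 ± 1.46 CPM to 162 ± 1.54 after siKEAP1 and 161 ± 16.1 with both siRNAs (adjusted p = 0.0051 and 0.00494), and was 141 ± 12.4 after siCCNF, where it missed the threshold.

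Regulators of flux did not move as a group. Pdk1, a kinase that inhibits pyruvate dehydrogenase, was 91.8, 90.7 and 95.8 CPM in siCONTROL, 57.4, 44.6 and 57.0 in siKEAP1, 48.9, 56.9 and 58.1 in siCCNF and 37.5, 44.6 and 37.9 in siKEAP1/siCCNF libraries. Every depleted library was below control, with log2 fold changes of -0.81 ± 0.11, -0.76 ± 0.11 and -1.21 ± 0.11 (edgeR adjusted p = 4.5e-05, 5.49e-05 and 1.37e-06). Pfkfb3, which makes an allosteric activator of phosphofructokinase, went the other way in every depleted library. It was 9.73, 9.88 and 12.6 CPM in siCONTROL, 13.9, 14.9 and 16.2 in siKEAP1, 21.3, 22.2 and 23.4 in siCCNF and 18.5, 19.9 and 18.2 in siKEAP1/siCCNF libraries. The log2 fold changes were 0.49 ± 0.11, 1.05 ± 0.11 and 0.81 ± 0.11 (edgeR adjusted p = 0.00303, 4e-06 and 4.73e-05). Pfkfb4, its paralog, rose after siKEAP1 from 21.8 ± 2.55 to 37.2 ± 0.807 CPM (0.77 ± 0.09, edgeR adjusted p = 1.8e-05), and was 22.7 ± 1.66 after siCCNF and 24.9 ± 1.04 with both, where it missed the threshold. With both siRNAs it passed without siCONTROL replicate 3 (0.28, adjusted p = 0.0323).

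**Figure D3:**
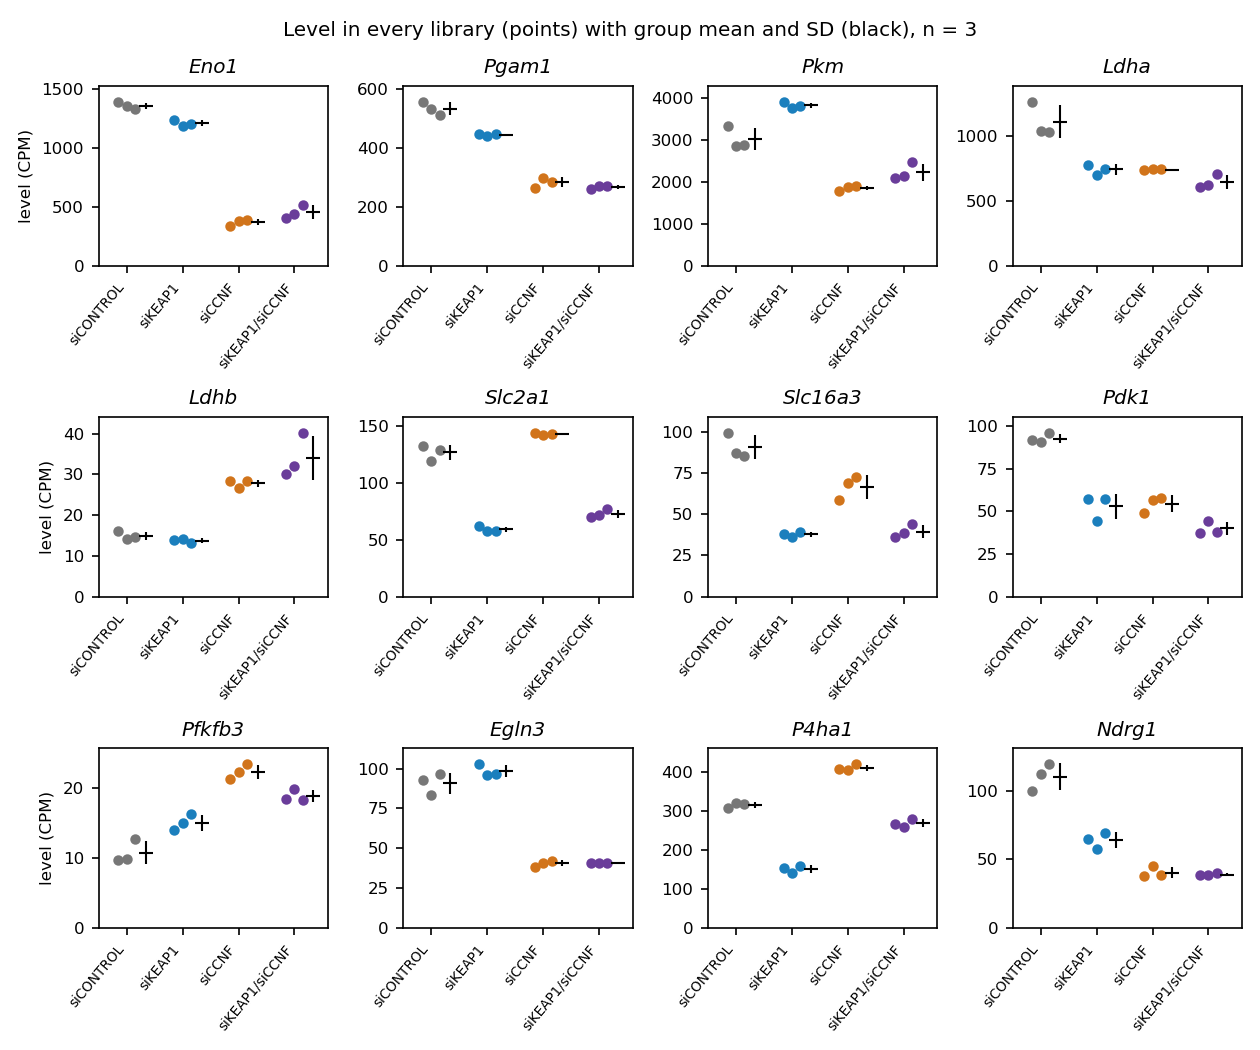
Level (y axis, CPM, from 0) of 12 members in every library, with 1 point a library, and the group mean and SD in black (n = 3). Eno1 and Egln3 drop in the siCCNF and siKEAP1/siCCNF groups, Slc2a1 in the siKEAP1 and siKEAP1/siCCNF groups, while Ldhb and Pfkfb3 rise after siCCNF and P4ha1 is lowest in siKEAP1 and highest in siCCNF cells.

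Of the oxygen sensing genes, Egln3 changed most. Egln3 (ENSMUSG00000035105, chromosome 12 from 54178981 to 54203860) encodes the HIF prolyl hydroxylase PHD3 and is itself a HIF target. It was 92.7, 83.5 and 96.4 CPM in siCONTROL, 103, 96.1 and 96.3 in siKEAP1, 38.4, 40.6 and 42.1 in siCCNF and 40.6, 40.5 and 40.4 in siKEAP1/siCCNF libraries. The 6 libraries with siCCNF lay together below the other 6. The log2 fold changes were 0.11 ± 0.07, -1.17 ± 0.07 and -1.16 ± 0.07 (edgeR adjusted p = 0.2, 3.67e-08 and 5.21e-08). Egln1, the main prolyl hydroxylase PHD2, instead fell with siKEAP1, from 74.8 ± 4.36 to 53.6 ± 4.46 CPM, and to 60.2 ± 1.71 CPM with both (edgeR adjusted p = 0.000134 and 0.00305). After siCCNF it was 73.0 ± 1.42 CPM, within the control range. Hif1a mRNA, which encodes the oxygen-regulated subunit, was 282 ± 20.1, 248 ± 5.46, 235 ± 22.5 and 230 ± 22.0 CPM in siCONTROL, siKEAP1, siCCNF and siKEAP1/siCCNF cells. The latter 2 differences passed the test (-0.26 ± 0.09 and -0.29 ± 0.09, edgeR adjusted p = 0.0246 and 0.0151). The call after siCCNF was lost without siCONTROL replicate 2, siCONTROL replicate 3 or siCCNF replicate 1 (adjusted p = 0.0699 to 0.12), and that with both was lost without siCONTROL replicate 2 (adjusted p = 0.0546). After siKEAP1 it was -0.18 ± 0.09 (adjusted p = 0.117), and it was -0.25 without siCONTROL replicate 1 (adjusted p = 0.0327) and without both libraries that stand apart (adjusted p = 0.0023). These are mRNA levels, and HIF-1α is known to be set mainly by protein stability, which was not measured here.

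The collagen prolyl 4-hydroxylase subunits P4ha1 and P4ha2 fell after siKEAP1 and rose after siCCNF. P4ha1 (ENSMUSG00000019916, chromosome 10 from 59323296 to 59373304) was 307, 321 and 317 CPM in siCONTROL, 152, 140 and 159 in siKEAP1, 406, 404 and 419 in siCCNF and 267, 258 and 280 in siKEAP1/siCCNF libraries. The 4 groups did not overlap with each other. Its log2 fold changes were -1.07 ± 0.06, 0.38 ± 0.06 and -0.23 ± 0.06 (edgeR adjusted p = 2.87e-08, 0.000185 and 0.00689). P4ha2 was 78.0, 75.0 and 81.5 CPM in siCONTROL, 54.1, 53.4 and 56.3 in siKEAP1, 124, 138 and 139 in siCCNF and 84.3, 83.2 and 100 in siKEAP1/siCCNF libraries. Its log2 fold changes were -0.52 ± 0.08, 0.77 ± 0.08 and 0.19 ± 0.08 (edgeR adjusted p = 0.000172, 4.14e-06 and 0.068). Kdm3a, a histone demethylase, fell after siKEAP1 from 60.3 ± 8.36 to 40.4 ± 3.48 CPM (edgeR adjusted p = 0.00132). It was 73.2 ± 4.96 CPM after siCCNF, with a log2 fold change of 0.28 ± 0.11 that missed the threshold (adjusted p = 0.0575) and passed it without siCONTROL replicate 2 (0.36, adjusted p = 0.0384) or siKEAP1/siCCNF replicate 3 (0.28, adjusted p = 0.0339). With the replicate number as a block in these 2 groups it was 0.29 with an adjusted p of 0.0209. Without both libraries that stand apart it was 0.17 and missed the threshold (edgeR adjusted p = 0.0609).

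Ndrg1, Bnip3 and Mxi1 fell with siCCNF, and Vegfa did not pass the test there. Ndrg1, a stress-responsive gene, was 99.8, 113 and 120 CPM in siCONTROL, 65.3, 57.5 and 69.3 in siKEAP1, 37.4, 44.9 and 38.3 in siCCNF and 38.6, 38.2 and 39.8 in siKEAP1/siCCNF libraries. All depleted libraries lay below control and those with siCCNF lowest, with log2 fold changes of -0.79 ± 0.09, -1.46 ± 0.09 and -1.51 ± 0.10 (edgeR adjusted p = 1.83e-05, 8.03e-08 and 8.29e-08). Bnip3, a mitophagy receptor, was 65.9 ± 3.62, 52.6 ± 3.71, 36.5 ± 4.51 and 31.8 ± 2.69 CPM in siCONTROL, siKEAP1, siCCNF and siKEAP1/siCCNF cells, with log2 fold changes of -0.33 ± 0.10, -0.85 ± 0.10 and -1.05 ± 0.10 (edgeR adjusted p = 0.0167, 1.17e-05 and 2.49e-06). The call after siKEAP1 was lost without siCONTROL replicate 3 (adjusted p = 0.0538) or siKEAP1 replicate 2 (adjusted p = 0.0731). Mxi1, a MYC antagonist, was 38.2 ± 1.57 CPM in siCONTROL and 42.8 ± 1.89 in siKEAP1, and fell to 25.5 ± 0.857 and 26.9 ± 0.647 in siCCNF and siKEAP1/siCCNF cells (adjusted p = 1.01e-05 and 3.8e-05). Vegfa, the angiogenic growth factor, was 129 ± 7.65, 139 ± 0.833, 113 ± 14.7 and 109 ± 5.61 CPM in the same order. After siCCNF it passed without siCCNF replicate 2 (-0.25, adjusted p = 0.0488), and ran from -0.25 to -0.08 with each library left out. Its call with both siRNAs (-0.24 ± 0.09, edgeR adjusted p = 0.0386) was lost when any 1 of 5 libraries was left out (adjusted p = 0.053 to 0.0923), and without both libraries that stand apart it was -0.18 with an adjusted p of 0.0983.

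The lowest members were Ankrd37 and Adm. Ankrd37, a strongly hypoxia-inducible ankyrin repeat gene, was 3.27 ± 0.73 CPM in siCONTROL, 2.17 ± 0.363 in siKEAP1, 1.96 ± 0.475 in siCCNF and 1.42 ± 0.293 with both, and the last passed the test with -1.19 ± 0.25 (edgeR adjusted p = 0.00177). After siKEAP1 it missed the threshold and passed without siCONTROL replicate 2 (-0.76, adjusted p = 0.0352). Its call after siCCNF (-0.74 ± 0.24, adjusted p = 0.0224) was lost when any 1 of 4 libraries was left out (adjusted p = 0.0547 to 0.0925) and without both libraries that stand apart (adjusted p = 0.0803). Adm, which encodes the peptide adrenomedullin, was 0.64 ± 0.14 CPM in siCONTROL and 1.29 ± 0.158 with both siRNAs (0.99 ± 0.36, edgeR adjusted p = 0.0382). That call was lost when any 1 of 4 libraries was left out (adjusted p = 0.0783 to 0.123) and without both libraries that stand apart (1.07, adjusted p = 0.0756). Sorted by the tests against siCONTROL, 8 rows were lower in all 3 depleted groups: Eno3, Ldha, Pgam1, the shorter Aldoa row, Slc16a3, Pdk1, Bnip3 and Ndrg1. Another 10 were lower in both groups with siCCNF and did not pass after siKEAP1, and Pfkfb3 alone was higher in all 3. The 3 comparisons share the siCONTROL libraries, and the shares of all genes tested with these patterns were not taken.

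The promoters of 4 genes are shown because these genes mark the patterns above: Eno1 and Egln3 were low where Ccnf was depleted, and P4ha1 and Slc2a1 were low after siKEAP1. Each line is the 250 bases before the RefSeq transcription start (GRCm38.p6, 5′ to 3′ on the strand of the gene), and capitals mark the core of the HIF binding element, ACGTG or GCGTG on either strand.
Eno1 (chr4:150236458-150236707, plus strand): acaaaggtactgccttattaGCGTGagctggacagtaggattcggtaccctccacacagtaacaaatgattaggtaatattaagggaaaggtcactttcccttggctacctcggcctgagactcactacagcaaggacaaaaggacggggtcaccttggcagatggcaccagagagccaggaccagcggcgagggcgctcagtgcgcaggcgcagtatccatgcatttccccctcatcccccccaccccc
Egln3 (chr12:54203875-54204124, minus strand): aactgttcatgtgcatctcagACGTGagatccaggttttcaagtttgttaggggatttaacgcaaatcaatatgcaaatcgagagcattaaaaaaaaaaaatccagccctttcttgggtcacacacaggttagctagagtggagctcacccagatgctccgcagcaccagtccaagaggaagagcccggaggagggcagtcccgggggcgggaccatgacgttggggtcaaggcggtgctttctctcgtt
P4ha1 (chr10:59323046-59323295, plus strand): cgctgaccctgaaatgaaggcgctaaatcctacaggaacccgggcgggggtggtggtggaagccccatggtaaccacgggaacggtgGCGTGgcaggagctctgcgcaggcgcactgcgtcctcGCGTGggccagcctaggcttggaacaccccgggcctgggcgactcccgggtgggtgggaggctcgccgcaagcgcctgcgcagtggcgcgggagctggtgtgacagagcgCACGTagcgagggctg
Slc2a1 (chr4:119108495-119108744, plus strand): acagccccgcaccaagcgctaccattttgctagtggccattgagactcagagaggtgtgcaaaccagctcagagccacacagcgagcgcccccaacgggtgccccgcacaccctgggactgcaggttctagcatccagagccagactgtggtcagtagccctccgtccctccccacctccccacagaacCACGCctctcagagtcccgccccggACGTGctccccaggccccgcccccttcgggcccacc

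The core stood at 3 places in P4ha1, 2 in Slc2a1 and 1 each in Eno1 and Egln3. With the 50 bases after the start added, it was present in 25 of the 32 members with a promoter in RefSeq (78.1%), in 10 of 15 enzymes and 15 of 17 others. It was also present in 43.8% of all 32851 promoters of this length and in 60.8% of the 13482 that belong to tested genes. Median GC content was 64.8% in the members' windows, 52.7% in all promoters and 60.7% in those of tested genes. The core of the NRF2 element, TGACNNNGC, was found in 3 members (Slc16a1, P4ha1 and Adm) and in 14.1% of the promoters of tested genes. The E2F core TTCGCGC or TTGGCGC was found in 2 members (Pfkp and Pgk1) and in 6.63% of the promoters of tested genes. A match describes these letters and is not evidence that a factor binds.

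Adding siCCNF to siKEAP1 lowered 10 of 16 enzyme rows and raised 2, Pfkl and Ldhb, beside 13 and 1 for siCCNF alone against siCONTROL. Against siKEAP1 cells, siKEAP1/siCCNF cells had 17 rows (50%) lower and 7 (20.6%) higher, beside 26.9% and 24.1% of all genes tested, and the median of the enzymes was -0.58. Hk1 (-1.14 ± 0.05), Eno1 (-1.42 ± 0.09) and Egln3 (-1.28 ± 0.07) fell by more than 2-fold and Ldhb rose by more (1.31 ± 0.11). P4ha1 (0.84 ± 0.06), P4ha2 (0.71 ± 0.08), Kdm3a (0.52 ± 0.11), Pfkl (0.36 ± 0.09) and Slc2a1 (0.30 ± 0.06) were higher, as was Pfkfb3 (0.33 ± 0.10, edgeR adjusted p = 0.0194). Eno3 (0.01 ± 0.09) and Ldha (-0.20 ± 0.08, adjusted p = 0.0623), both lower after siCCNF alone, did not pass here. The interaction term, which tests the difference between the effects of siCCNF in siKEAP1 and in control cells, passed for 4 enzymes. It was upward for Eno1, Eno3 and Ldha and downward for Hk1. These are 18.75% and 6.25% of the 16 enzyme rows, beside 10.6% and 10.5% of all genes tested. Upward means a less negative siCCNF effect in siKEAP1 than in control cells, and downward a more negative one. Against siKEAP1 cells, Ldha (-0.26, edgeR adjusted p = 0.000124), Pfkm (-0.17, adjusted p = 0.0105) and Egln1 (0.15, adjusted p = 0.0481) passed without both libraries that stand apart. The Pfkfb3 call was lost without siKEAP1 replicate 1, siKEAP1 replicate 2 or siKEAP1/siCCNF replicate 2 (0.27 to 0.32, adjusted p = 0.0547 to 0.0795). More Keap1 mRNA remained in siKEAP1/siCCNF than in siKEAP1 cells, and its part in these differences was not tested.

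Adding siKEAP1 to siCCNF changed few members. Against siCCNF cells, siKEAP1/siCCNF cells had 7 rows (20.6%) lower and 0 higher by edgeR, beside 2.19% lower and 3.00% higher among all genes tested. DESeq2 called 2 rows higher, and the share of all genes in that fit was not taken. At an unadjusted edgeR p below 0.05, 5 of the 34 rows were higher and 12 lower, beside 1552 and 1241 of all 15122 genes tested. The 7 rows lower by edgeR's adjusted p were Slc2a1 (-0.97 ± 0.06), Slc16a3 (-0.76 ± 0.10), P4ha1 (-0.61 ± 0.06), P4ha2 (-0.58 ± 0.08), Pdk1 (-0.45 ± 0.11), Pfkl (-0.37 ± 0.09) and Egln1 (-0.28 ± 0.07). All 7 were also among the 14 rows lower after siKEAP1 against siCONTROL, and the same overlap was not taken over all genes tested. The first 4 kept their call whichever library was left out. The other 3 lost it when 1 of 4 to 7 libraries was left out (adjusted p = 0.0502 to 0.122). Without both libraries that stand apart, 12 rows were lower and 3 higher, beside 6.75% and 7.31% of all genes tested in that fit. The higher rows were Eno1 (0.18), Pkm (0.18) and Slc16a1 (0.27), and the further lower ones Pgk1 (-0.30), Ldha (-0.27), Kdm3a (-0.25), Pfkp (-0.24) and Eno3 (-0.18).

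The effect of siKEAP1 was tested directly for a difference between cells given siCCNF and control cells, by the interaction term of the edgeR fit. It passed in 9 of 34 rows, 6 upward (17.6%) and 3 downward (8.82%), beside 10.6% and 10.5% of all genes tested. It passed in 9 rows upward and 6 downward without both libraries that stand apart, beside 16.4% and 14.5% of all genes tested in that fit. The additions were Kdm3a (0.45, adjusted p = 0.00369), Pdk1 (0.42, adjusted p = 0.0401) and Hif1a (0.29, adjusted p = 0.0145) upward, and Pgk1 (-0.32, adjusted p = 0.00232), Gpi1 (-0.30, adjusted p = 0.00239) and Pkm (-0.22, adjusted p = 0.0099) downward. For Ndrg1 the siKEAP1 effect was -0.79 ± 0.09 in control cells and -0.05 ± 0.09 in cells given siCCNF, a difference of 0.74 ± 0.13 (edgeR adjusted p = 0.00149). Eno3 went from -0.70 ± 0.09 to -0.07 ± 0.09, a difference of 0.63 ± 0.13 (adjusted p = 0.00462 by edgeR). For P4ha1 and Slc16a3 the fall was smaller but remained, with differences of 0.46 ± 0.09 and 0.50 ± 0.14 (edgeR adjusted p = 0.00205 and 0.0182). The siKEAP1 effects on Pfkfb3 and Pfkfb4 were 0.49 ± 0.11 and 0.77 ± 0.09 in control cells but -0.24 ± 0.10 and 0.14 ± 0.09 in cells given siCCNF (edgeR adjusted p of the differences = 0.0039 and 0.00342). For Slc2a1 the effects were -1.10 ± 0.06 and -0.97 ± 0.06, and their difference of 0.13 ± 0.09 missed the threshold (adjusted p = 0.335).

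**Figure D4:**
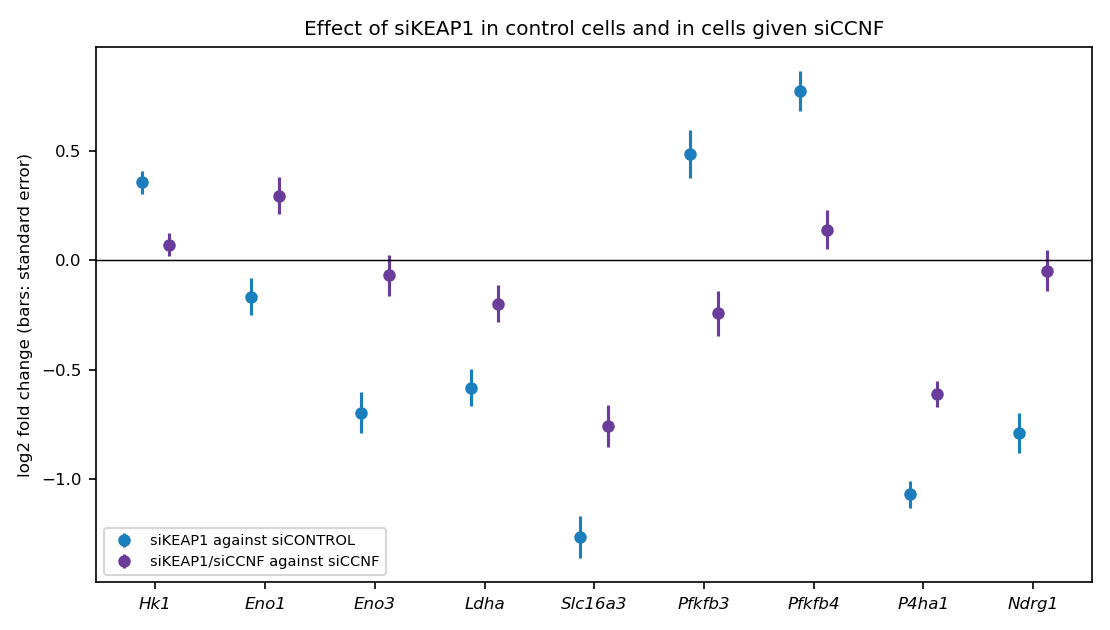
Log2 fold change by siKEAP1 (y axis, bars are the standard error) in control cells (blue) and in cells given siCCNF (purple) for the 9 members whose 2 effects differed at an adjusted p below 0.05. For Ndrg1 and Eno3 the purple points sit near 0 while the blue ones are at -0.79 and -0.70, and for Slc16a3 and P4ha1 both points lie below 0.

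In lists of related genes, 25 of 30 further genes of glucose metabolism were tested. Of these 4 were higher and 6 lower after siKEAP1, 6 and 7 after siCCNF, and 5 and 9 with both. These are 16% and 24% of the rows after siKEAP1 and 24% and 28% after siCCNF, near the shares of all genes tested (20.4% and 20.2%, 22.5% and 25.5%), and 20% and 36% with both (beside 20.6% and 23.6%). Beyond 2-fold in at least 1 group were the glucose transporters Slc2a3 (2.05 ± 0.29 after siCCNF and 1.58 ± 0.29 with both) and Slc2a4 (-1.78 ± 0.32, -1.86 ± 0.31 and -1.80 ± 0.32), whose product GLUT4 marks differentiated muscle. The pyruvate dehydrogenase kinases parted, with Pdk4 at 1.28 ± 0.12, 0.43 ± 0.12 and 1.04 ± 0.12 and Pdk2 at -0.58 ± 0.12, -1.17 ± 0.12 and -1.26 ± 0.12. Aldoc (1.18 ± 0.22) and Pgm2 (-1.02 ± 0.07) changed that far after siKEAP1 and the muscle glycogen phosphorylase Pygm after siKEAP1 and siCCNF (-1.18 ± 0.27 and -1.28 ± 0.26). Its liver paralog Pygl was lower with both (-2.11 ± 0.71, edgeR adjusted p = 0.0286). That value rests on few reads, with 13, 4 and 17 counts in siCONTROL and 2, 6 and 2 in siKEAP1/siCCNF libraries. Gapdh passed the test too and is counted among the higher rows after siKEAP1 and siCCNF. Its counts, however, ran from 274 to 4620 among the siKEAP1 libraries and from 321 to 5814 among the siCCNF libraries. Both overlapped with control (196 to 397), so no direction is drawn for it. Gapdh has many processed copies in the genome, and how reads that fit several copies were counted is not given in the sources used here.

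Of 38 tested rows of a wider HIF pathway list, 10 were higher and 16 lower after siKEAP1, 14 and 9 after siCCNF, and 12 and 13 with both. These are 26.3% and 42.1% after siKEAP1 (beside 20.4% and 20.2% of all genes tested), 36.8% and 23.7% after siCCNF (beside 22.5% and 25.5%) and 31.6% and 34.2% with both (beside 20.6% and 23.6%). Angptl4, a secreted lipase inhibitor, was higher in all 3 groups (1.22 ± 0.18, 2.95 ± 0.18 and 2.82 ± 0.18), as were Ppp1r3c (1.84 ± 0.18, 1.23 ± 0.19 and 1.30 ± 0.19), which targets a phosphatase to glycogen, and Hmox1 (1.58 ± 0.08, 0.81 ± 0.08 and 1.25 ± 0.08), which is also an NRF2 target. Cxcr4, a chemokine receptor, was lower in all 3 (-1.19 ± 0.12, -2.82 ± 0.13 and -2.89 ± 0.14), as was the circadian repressor Bhlhe40 (-1.69 ± 0.10, -0.41 ± 0.09 and -1.38 ± 0.10). Car9, a carbonic anhydrase induced by hypoxia, fell after siCCNF (-1.45 ± 0.23) and with both (-1.89 ± 0.24), while Loxl2 rose (1.55 ± 0.15 and 1.33 ± 0.15). After siKEAP1, Gbe1 (2.46 ± 0.09), Car12 (1.75 ± 0.25) and Arnt2 (1.06 ± 0.08) were higher and Stc2 (-1.49 ± 0.29) lower. All these values passed edgeR's test at an adjusted p below 0.05.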

How the data were processed

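RNA was taken from C2C12 cells of 4 siRNA groups with 3 biological replicates each. Novogene prepared and sequenced the libraries. Per the labels, poly(A) RNA was used, and the submitters' processing notes name HISAT2 (no version) and GRCm39. The coordinates in the table are those of GRCm38: 53499 of 54409 rows with a GENCODE M21 identifier had identical start and end. The counting tool, strand and treatment of reads that fit several places are not given in the sources used here. The deposited table of the authors holds raw read counts per gene, FPKM values (counts divided by gene length and library total) and gene length. It also holds fold changes and p-values of the authors' own comparisons, which were not used.

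Counts were tested with edgeR 4.0.16 in R 4.3.3. Rows were kept by filterByExpr with its default settings (15122 of 54532), scaled by TMM, and fitted with 1 mean for each group (glmQLFit and glmQLFTest). Contrasts were taken between groups and for the interaction, and p-values were adjusted by Benjamini-Hochberg over all rows tested in each. A row was called at an adjusted p below 0.05. The SE is that of the log2 fold change. CPM is on TMM-scaled totals. Isozyme shares use FPKM and the exact permutation test, 2-sided. Total counts of 18464209 to 37743198 set the precision, which is low for members near 1 CPM. Identical libraries were sought within each group and none found. No column of other samples was present (0 unused).

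All 33 members, the 2 wider lists and the cell type markers were chosen with earlier results of these data known. Every member that passed the filter may be named, with Keap1, Ccnf and genes of the wider lists that differed more than 2-fold from siCONTROL. A gene of the wider HIF pathway list is not reported here by name. RefSeq promoters run from 250 bases before to 50 after the start, and were available for 32 of 33 members (not Ndrg1). For each gene the start nearest to the deposited 5′ end was used.

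Alternatives were DESeq2 1.42.0, total library sizes, no filter, at least 10 counts in every library, a replicate block, limma 3.58.1 on log2(FPKM + 1) and log2(FPKM + 0.1), removal of a gene length trend (spline with 5 degrees of freedom), the compared groups alone, stricter thresholds, and each of the 12 libraries left out. Leaving out the 2 libraries that stand apart together was added after seeing the data. Replicate numbers are not said to mark a shared day or batch, but same-numbered siCONTROL and siCCNF libraries deviated together in 3 of 3 pairs (r = 0.13 to 0.30), so a fit of these 2 groups with the replicate number as a block was added too. On simulated counts for siKEAP1 against siCONTROL (14783 genes), the test found 55 of 100 genes changed 1.5-fold and 88 of 100 changed 2-fold, and called 10 unchanged genes. The simulated libraries were independent, few of their genes differed, and deviations that follow gene length were not simulated. These rates may therefore not hold for the measured libraries.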

Additional observations from a re-analysis of the deposited data

Results flagged for a closer look

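For 9 members the effect of siKEAP1 in cells given siCCNF differed from its effect in control cells, by the interaction term of the edgeR fit (adjusted p below 0.05 over all genes). The differences, on the log2 scale with SE, were 0.74 ± 0.13 for Ndrg1, 0.63 ± 0.13 for Eno3, 0.50 ± 0.14 for Slc16a3, 0.46 ± 0.12 for Eno1, 0.46 ± 0.09 for P4ha1, 0.38 ± 0.12 for Ldha, -0.29 ± 0.07 for Hk1, -0.63 ± 0.13 for Pfkfb4 and -0.73 ± 0.15 for Pfkfb3. Upward means that the siKEAP1 effect was less negative or more positive with siCCNF. The edgeR adjusted p-values ran from 0.00149 for Ndrg1 to 0.0373 for Ldha. The Ldha difference was lost when any 1 of 6 libraries was left out (0.32 to 0.39, edgeR adjusted p = 0.0644 to 0.0957). The other 8 kept their call with each library left out. Without both libraries that stand apart, the Ldha difference was 0.22 (adjusted p = 0.0154), and 9 rows passed upward and 6 downward, the 9 above among them. Keap1 itself was less depleted with both siRNAs (24.1 ± 2.56 CPM, n = 3) than with siKEAP1 alone (12.6 ± 0.279 CPM), and the part of this in the 9 differences was not tested.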

How the results depend on the processing

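Over 23 alternative fits, 0 of the 204 member values (34 rows in 6 comparisons) changed direction where called in either fit, and 102 of the 116 calls held with each library left out in turn. Requiring over 2-fold gave 0 higher and 3 lower rows for siKEAP1, 1 and 3 for siCCNF, 1 and 9 for siKEAP1/siCCNF, 1 and 3 for siKEAP1/siCCNF against siKEAP1, 0 and 0 against siCCNF, and 0 and 0 for the interaction. Against siKEAP1 these were 2.94% and 8.82% of the rows, beside 5.32% and 9.17% of all genes tested, so the lower share was near that of all genes. The shares of all genes were 0.496% and 0.231% against siCCNF, and 2.12% and 4.07% for the interaction. An adjusted p below 0.01 left 4 rows lower for siKEAP1/siCCNF against siCCNF and 3 higher for the interaction. Rows higher for siKEAP1/siCCNF against siCCNF were 2 with DESeq2, with total library sizes and with no filter, and 1 with the gene length trend removed, which gave 7 higher rows for siKEAP1/siCCNF against siCONTROL. The shares of all genes at an adjusted p below 0.01, in these fits, and in the single-library and block fits below were not taken.

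Without both libraries that stand apart, siKEAP1/siCCNF against siCCNF had 3 higher and 12 lower rows and the interaction 6 lower. The enzyme median was then -0.058 for siKEAP1 and -0.057 for the interaction, against 0.12 with all libraries. The median of the other members after siKEAP1 was -0.47 with at least 10 counts in every library and -0.34 on log2(FPKM + 1). The enzyme median was -0.63 with total library sizes and -0.59 with at least 10 counts for siCCNF, and -0.64 on log2(FPKM + 1) for siKEAP1/siCCNF. With each library left out, siKEAP1/siCCNF against siCCNF had 0 to 2 rows higher and 4 to 11 lower (4 without siCCNF replicate 2, 11 without siCONTROL replicate 1). The enzyme median ran from -0.146 to -0.0578 for siKEAP1, -0.65 to -0.58 for siCCNF and -0.78 to -0.67 for siKEAP1/siCCNF. The cause of these shifts was not tested.

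Same-numbered libraries deviated together most evenly between siCONTROL and siCCNF (r = 0.13 to 0.30). Between other groups r ran from -0.47 to 0.29. The lowest r was 0.06 between siKEAP1 and siCCNF and 0.02 between siKEAP1 and siCONTROL. It was negative for each pair of groups that includes siKEAP1/siCCNF. With a replicate block in the fit of all groups, siCCNF had 19 rows lower and siKEAP1/siCCNF against siCCNF 5, and the calls of Gpi1 and Pgk1 after siCCNF, Vegfa with both siRNAs, and Pfkl and Pdk1 against siCCNF were lost, while Egln1 against siKEAP1 passed. With siCONTROL and siCCNF alone and the block, 19 rows were lower and 5 higher after siCCNF. The lowest counts per library were 9 to 44 for Adm, 27 to 76 for the shorter Aldoa row and 28 to 88 for Ankrd37.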
